A study of Rattus norvegicus with 6 samples.

Results

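Toll-like receptors (TLRs) and their partners detect microbial products and molecules released from injured cells, and 10 genes of this system were followed in rat myocardium after ischemia/reperfusion: the receptors Tlr2, Tlr3, Tlr4 and Tlr7, the co-receptors Cd14 and Ly96, the adaptor Myd88, the kinases Irak3 and Irak4, and the C-type lectin receptor Clec4e. They were chosen by symbol, and 9 of the 10 had a row among the 28293 genes of the deposited table. Tlr7 was not analysed here. Of the 9 genes, 7 had a mean of at least 0.5 FPKM (fragments counted on a gene, divided by its length and by library size) over the 6 samples and entered the comparison, as 10942 genes did in all.

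The comparison was between 3 sham rats and 3 rats with ischemia/reperfusion (I/R), all male and WT. The I/R rats had a ligature on the left anterior descending artery for 30 min, and their hearts were taken after 6 h of reperfusion. The labels write both times for the sham rats as well and say nothing more of the sham operation, and strain, age and the sampled region of the myocardium are not given in the sources used here. Total RNA was sequenced with a stranded kit. Each of the 6 libraries is labelled as a numbered replicate of its group and is read here as a separate rat.

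TLR4 recognises lipopolysaccharide together with LY96 (MD-2), which binds the ligand, and CD14, which delivers it. TLR2 also uses CD14, and both receptors, like TLR7 but unlike TLR3, signal through MYD88, which assembles the kinase IRAK4 with its partners and leads to NF-kB. IRAK3 (IRAK-M) is a related protein that restrains this signal, and CLEC4E (Mincle) senses dying cells through a separate adaptor. In the heart these genes are used both by resident cells and by leukocytes that enter after injury. In bulk tissue such as this, a change in the number of cells of a type and a change in RNA per cell cannot be told apart.

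Of the 7 genes that entered the comparison, Cd14 and Myd88 were higher in I/R and Tlr3, Irak3 and Irak4 were lower at an adjusted p under 0.05 (limma on log2(FPKM + 0.1), Benjamini-Hochberg over the 10942 genes). Ly96 and Clec4e did not pass. Among all genes tested, 25.5% were called higher and 7.36% lower. Tlr2 and Tlr4 were below the level required and were read from the same fit on all 19226 genes above 0 in at least 1 sample, in which 11.4% of genes were called higher and 3.32% lower, and there Tlr2 was called higher and Tlr4 was not called. The members thus moved in both directions. With 3 rats against 3, the two-sided exact permutation test of a single gene cannot give a p under 0.1, and this was its value for each of the 6 called genes, whose groups did not overlap. Among the 10942 genes, the I/R group lay wholly above the sham group for 37.2% and wholly below it for 1418 genes, and among the 19226 genes for 23.9% and 11.7%.

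The libraries themselves differed between the groups. The 13 mRNAs encoded by the mitochondrial genome held 80.1% to 86.2% of the summed FPKM in the sham rats and 61.8% to 71.5% in the I/R rats, and the median log2 fold change of all tested genes was 0.29. Sham rat 1 stood apart from the other sham rats, with a mitochondrial share of 80.1% against 85.1% and 86.2% and summed cardiomyocyte markers of 11148 FPKM against 3871 and 3400 FPKM. Without it, Tlr3, Irak3, Irak4, Cd14 and Tlr2 kept their calls and Myd88 lost its own. When each library was rescaled to its other genes, that median was -0.46, and each member is therefore also given on this second scale. FPKM steps allowed the smallest whole fragment numbers to be recovered for 98.6% of the 16822 rows above 0 in at least 3 samples. They put the depth of the other libraries at 0.873 to 1.18 times that of sham rat 1, and the fragments quoted below are these numbers or a whole multiple of them.

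**Figure D1:**
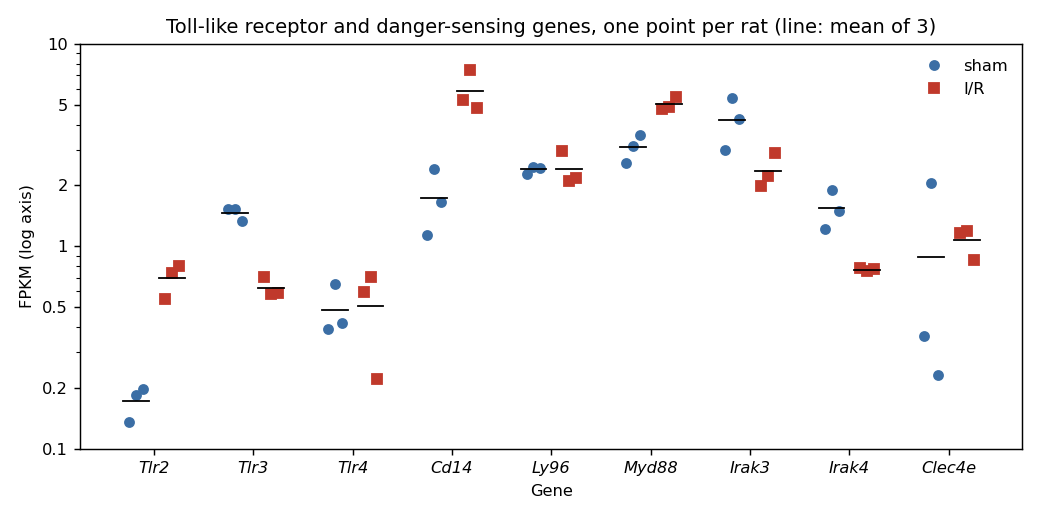
FPKM on a log axis for the 9 genes with a row, with 1 point per rat (circles: sham; squares: I/R) and a line at the mean of 3. The groups are separate for Tlr2, Cd14 and Myd88, which were higher in I/R as deposited, and for Tlr3, Irak3 and Irak4, which were lower, while Tlr4, Ly96 and Clec4e overlap. On the scale without the mitochondrial mRNAs Myd88 has the opposite sign.

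Stretches of the promoters of the 6 called genes are shown because each holds the letters of a binding motif searched for here. The motif shown differs between genes, so the stretches do not compare the genes that went up with those that went down. The sequences are from RefSeq (build GRCr8), which held promoters for 9 of the 10 members. Ly96 was the member without one. The 250 bases before each start were searched on both strands for GGG and CC with 5 bases of any kind between them (NF-kB), GAAA and GAAA with 2 bases between them (interferon-stimulated response element), GAGGAA (PU.1, a factor of myeloid cells), GGGCGG (SP1) and TGANTCA (AP-1). Capitals mark the matched letters, and each sequence is written 5′ to 3′ on the strand of its gene.
Tlr2, chr2:171504743-171504772, minus strand, NF-kB letters 205 to 196 bases before the start: aggcccttggGGGAATTCCCatacggagcc
Cd14, chr18:28611281-28611310, minus strand, PU.1 letters 140 to 135 bases before the start: tagggttgttagGAGGAAgagaagtgggga
Myd88, chr8:127956231-127956260, minus strand, interferon response letters 16 to 7 bases before the start: ggcggagcttctcgGAAAGCGAAAggagga
Tlr3, chr16:53554692-53554721, plus strand, NF-kB letters 214 to 205 bases before the start: aggcatgtctGGTTTAGCCCacggcttgtt
Irak3, chr7:57598646-57598675, minus strand, NF-kB letters 34 to 25 bases before the start: aggtctcgcaGGGGCATCCCtggggagagg
Irak4, chr7:127561703-127561732, plus strand, NF-kB letters 64 to 55 bases before the start: tcgggaggaaGGGCGTGGCCttccgggttg

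The loose NF-kB letters were found in 4 of the 9 members, namely Tlr2, Tlr3, Irak3 and Irak4, and in 42.3% of all 33465 promoters of the same length, so that they stood in 1 gene that was higher and in 3 that were lower. A narrower spelling, GGGA and TTCCC with any 1 base between them, which was chosen after the Tlr2 sequence had been seen and overlaps the loose one, was in 0.356% of promoters and among the members only in Tlr2. The interferon response letters and the AP-1 letters were found among the members only in Myd88, against 3.41% and 6.34% of all promoters. PU.1 letters were in 6 of 9 members (Cd14, Clec4e, Irak4, Tlr3, Tlr4 and Tlr7) and in 23.3% of promoters, and SP1 letters in 4 of 9 (Irak3, Irak4, Myd88 and Tlr2) and in 30.5%. In Irak4 the SP1 letters overlap a further NF-kB match. A match of letters is a description of the window and does not show that a factor binds there. For Cd14, Clec4e, Irak3, Tlr2 and Tlr7 the annotated gene reaches further upstream than the start used here.

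Among the receptors, Tlr2 (ENSRNOG00000009822), which recognises lipoproteins and danger signals at the cell surface, stood at 0.136, 0.184 and 0.198 FPKM in sham rats 1 to 3 and at 0.548, 0.740 and 0.802 FPKM in I/R rats 1 to 3. All 3 I/R rats were above all 3 sham rats. The means were 0.173 ± 0.0323 and 0.697 ± 0.132 FPKM (SD, n = 3), a 4.04-fold higher level in I/R, from 37 to 61 fragments in a sham library and 130 to 192 in an I/R library. In the fit without the filter, the log2 fold change was 1.54 (SE 0.29, limma adjusted p = 0.023). On the scale without the mitochondrial mRNAs it was 0.95 with an adjusted p of 0.14, and with 1 rat left out in turn it stayed between 1.44 and 1.68, with adjusted p from 0.045 to 0.11 and a call only without sham rat 1. Those smaller fits without the filter called few genes of any kind, 227 higher and 31 lower without I/R rat 1 and fewer still without sham rat 2, sham rat 3, I/R rat 2 or I/R rat 3, so the lost calls say little of Tlr2 itself.

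Tlr3 (ENSRNOG00000021726), the endosomal receptor for double-stranded RNA, moved the other way. Its values were 1.53, 1.52 and 1.33 FPKM in the sham rats and 0.705, 0.582 and 0.588 FPKM in the I/R rats. The sham values lay close together and each was well above the highest I/R value. The mean fell from 1.46 ± 0.113 to 0.625 ± 0.0692 FPKM (SD, n = 3), 2.34-fold higher in sham than in I/R, from 298 to 354 fragments in a sham library and 102 to 121 in an I/R library. The log2 fold change was -1.11 (SE 0.26, limma adjusted p = 0.011), and 94.9% of all tested genes had a higher value. The call and its direction held in all 16 alternatives run for this gene, including every omission of a rat, with log2 fold changes from -1.82 to -0.60 and adjusted p from 0.0024 to 0.042.

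Tlr4 (ENSRNOG00000010522), the lipopolysaccharide receptor, showed no such separation. It was measured at 0.391, 0.652 and 0.416 FPKM in the sham rats and at 0.596, 0.707 and 0.222 FPKM in the I/R rats. The lowest and the highest of the 6 values were both from I/R rats, the lowest resting on 29 fragments. The means were 0.486 ± 0.144 and 0.508 ± 0.254 FPKM (SD, n = 3), and the log2 fold change in the fit without the filter was -0.03 (SE 0.43, limma adjusted p = 0.97). Its standard error was wider than that of Tlr2 or Tlr3, and its sign changed when I/R rat 3 was left out (0.38) and when sham rat 2 was left out (0.17), so changes of this size and well above it were not detectable here.

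Of the co-receptors, Cd14 (ENSRNOG00000017819), which hands lipopolysaccharide and other ligands to TLR4 and TLR2, had the highest mean FPKM of the 9 genes in I/R. It stood at 1.14, 2.42 and 1.65 FPKM in the sham rats and at 5.26, 7.46 and 4.81 FPKM in the I/R rats. The lowest I/R value was above the highest sham value. The mean rose from 1.74 ± 0.646 to 5.84 ± 1.41 FPKM (SD, n = 3), 3.36-fold, from 88 to 221 fragments in a sham library and 328 to 539 in an I/R library. The log2 fold change was 1.73 (SE 0.30, limma adjusted p = 0.0043), and 5.89% of all tested genes had a higher one. The call held with each rat left out in turn (log2 fold change 1.47 to 1.99) and was lost on the scale without the mitochondrial mRNAs, where the log2 fold change was 0.97 with an adjusted p of 0.052. The study shows Cd14 among the MAPK genes it picked for differing between its sham and reperfused hearts, so that display is not independent evidence of the direction. The paper also names Cd14 among MAPK genes that were higher in ischemic hearts. It reports a rise of Cd14 by qRT-PCR in ischemic myocardium and in hypoxic cardiomyocytes. Those comparisons were of ischemia or hypoxia, not of reperfusion.

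Ly96 (ENSRNOG00000067966), which encodes the ligand-binding partner of TLR4, stayed within a narrow range. Its level was 2.28, 2.48 and 2.45 FPKM in the sham rats and 2.97, 2.10 and 2.18 FPKM in the I/R rats. The sham values fell inside the range of the I/R values. The means were 2.40 ± 0.108 and 2.42 ± 0.479 FPKM (SD, n = 3), from 80 to 122 fragments in each library, with a log2 fold change of -0.01 (SE 0.22, limma adjusted p = 0.98). On the scale without the mitochondrial mRNAs the value was -0.76 with an adjusted p of 0.061.

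The adaptor Myd88 (ENSRNOG00000013634) was at 2.59, 3.12 and 3.55 FPKM in the sham rats and at 4.80, 4.90 and 5.46 FPKM in the I/R rats. The I/R values were all higher and closer together. The mean rose from 3.08 ± 0.481 to 5.05 ± 0.357 FPKM (SD, n = 3), 1.64-fold, from 339 to 528 fragments in a sham library and 549 to 631 in an I/R library. The log2 fold change was 0.70 (SE 0.22, limma adjusted p = 0.033) and 30.2% of all tested genes had a higher one. The direction of Myd88 depended on the scale: it was -0.06 (adjusted p = 0.88) without the mitochondrial mRNAs, and the value was 0.45 (adjusted p = 0.12) after centring on the median. With 1 rat left out, the call held only without I/R rat 1, with adjusted p from 0.049 to 0.11.

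Both IRAK genes among the members fell. Irak2, a related kinase that is not a member, did not fall as deposited. Its log2 fold change was 0.54 (limma adjusted p = 0.14), and -0.21 on the scale without the mitochondrial mRNAs. Irak4 (ENSRNOG00000005965), the kinase that MYD88 recruits first, was at 1.22, 1.90 and 1.50 FPKM in the sham rats and at 0.778, 0.755 and 0.771 FPKM in the I/R rats. The I/R rats were nearly equal and all below the lowest sham rat. The mean fell from 1.54 ± 0.343 to 0.768 ± 0.0116 FPKM (SD, n = 3), 2.01-fold higher in sham, from 180 to 331 fragments in a sham library and 100 to 104 in an I/R library. The log2 fold change was -0.90 (SE 0.26, limma adjusted p = 0.027). The call was lost with no filter (adjusted p = 0.061), after rescaling to TPM (adjusted p = 0.075), and when any of sham rats 2 and 3 and I/R rats 2 and 3 was left out, with adjusted p up to 0.090.

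Irak3 (ENSRNOG00000004226), the inhibitory member, was the most abundant of the 9 genes in sham myocardium. It was at 3.0, 5.39 and 4.26 FPKM in the sham rats and at 1.98, 2.24 and 2.89 FPKM in the I/R rats. The groups were apart, but sham rat 1 and I/R rat 3 were close to each other. The mean fell from 4.21 ± 1.20 to 2.37 ± 0.469 FPKM (SD, n = 3), 1.78-fold higher in sham, from 384 to 815 fragments in a sham library and 221 to 326 in an I/R library. The log2 fold change was -0.78 (SE 0.27, limma adjusted p = 0.048), the call nearest to the threshold among the members. It was lost with a pseudocount of 1 (adjusted p = 0.052), with no filter (0.099), after rescaling to TPM (0.12) and without the intensity trend (0.063), and with 1 rat left out it held only without sham rat 1, with adjusted p from 0.023 to 0.15. On the scale without the mitochondrial mRNAs, Irak3 (-1.54, adjusted p = 0.0054) and Irak4 (-1.62, adjusted p = 0.0056) were both called lower.

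Clec4e (ENSRNOG00000061394), the lectin receptor for a nuclear protein released by dying cells, was the most uneven gene in the sham group. It stood at 0.361, 2.06 and 0.231 FPKM in the sham rats and at 1.17, 1.19 and 0.857 FPKM in the I/R rats. Sham rat 2 was above every I/R rat, and the other sham rats were below every I/R rat. The means were 0.884 ± 1.02 and 1.07 ± 0.187 FPKM (SD, n = 3), from as few as 8 fragments in sham rat 3 and 74 in sham rat 2. The log2 fold change was 0.75 (SE 0.60, limma adjusted p = 0.36, two-sided exact permutation p = 0.4). Without sham rat 2 it was 1.57 with an adjusted p of 0.029, so this 1 library decides the call. The summed neutrophil, monocyte and pan-leukocyte markers of sham rat 2 were 0.963, 21.0 and 82.3 FPKM, each inside the range of the other sham rats. Its summed resident macrophage markers were 60.7 FPKM, against 58.6 and 53.7 FPKM in sham rats 1 and 3. The part of these cells in the Clec4e value was not tested.

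**Figure D2:**
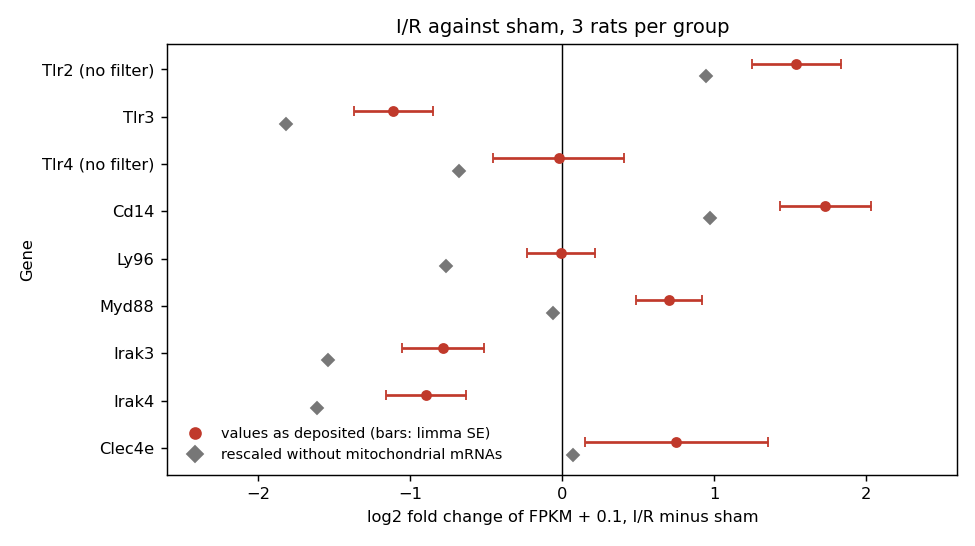
Log2 fold change of FPKM + 0.1, I/R minus sham, for the 9 genes (circles: values as deposited, with limma standard errors; diamonds: rescaled without the mitochondrial mRNAs; 3 rats per group). Every gene lies further to the left on the second scale, where Myd88 moves from 0.70 to -0.06, while Tlr3, Irak3 and Irak4 are below 0 and Tlr2 and Cd14 above 0 on both scales.

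Because FPKM is divided by gene length, levels can be ordered within a group. In sham myocardium the order by mean FPKM was Irak3 (4.21), Myd88 (3.08), Ly96 (2.40), Cd14 (1.74), Irak4 (1.54), Tlr3 (1.46), Clec4e (0.884), Tlr4 (0.486) and Tlr2 (0.173). Only the neighbours Myd88 and Ly96, and Tlr4 and Tlr2, had ranges that did not overlap. In I/R myocardium the order was Cd14 (5.84), Myd88 (5.05), Ly96 (2.42), Irak3 (2.37), Clec4e (1.07), Irak4 (0.768), Tlr2 (0.697), Tlr3 (0.625) and Tlr4 (0.508). There the ranges of Myd88 and Ly96, of Irak3 and Clec4e, and of Clec4e and Irak4 were apart. The ranges of Cd14 and Myd88 overlapped at the top, with Cd14 below Myd88 in I/R rat 3, and those of Tlr2, Tlr3 and Tlr4 overlapped at the bottom, where the last place of Tlr4 rests on its 0.222 FPKM in I/R rat 3.

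Ratios of 2 members within a library do not depend on how that library was scaled, apart from the pseudocount. The FPKM ratio of Cd14 to Tlr4 was 2.91, 3.72 and 3.97 in the sham rats and 8.84, 10.5 and 21.7 in the I/R rats. Every I/R rat thus had more Cd14 per Tlr4 than any sham rat, a difference of 1.75 on the log2 scale. Tlr2 was at 0.348, 0.282 and 0.475 of the Tlr4 level in the sham rats and at 0.921, 1.05 and 3.61 of it in the I/R rats, again with no overlap (log2 difference 1.57). The highest value of both ratios came from I/R rat 3, where Tlr4 rests on 29 fragments. With 1 rat left out, the log2 differences were 1.47 to 1.96 for Cd14 to Tlr4 and 1.06 to 1.86 for Tlr2 to Tlr4.

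The ratio of Tlr3 to Tlr4 went the other way. It was 3.92, 2.34 and 3.21 in the sham rats and 1.18, 0.822 and 2.65 in the I/R rats. I/R rat 3, the library with the lowest Tlr4 value, lay between sham rats 2 and 3 on this plain ratio, whereas on the log2(FPKM + 0.1) scale its value of 1.10 was just under the 1.11 of sham rat 2, so the separation of the groups (log2 difference -1.09) rests on the pseudocount. Across these 3 pairs the exact permutation p was 0.1, the smallest possible, and 0.2 after Benjamini-Hochberg adjustment over 6 pairs. The 3 pairs share Tlr4 and are not independent of each other.

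The other pairs overlapped. Ly96 to Tlr4 differed by 0.02 on the log2 scale (exact permutation p = 1) and Irak3 to Irak4 by 0.11 (exact permutation p = 0.5). The plain Irak3 to Irak4 ratio was 2.45, 2.83 and 2.85 in the sham rats and 2.54, 2.96 and 3.75 in the I/R rats, and 2 of the 3 I/R rats lay above every sham rat. Clec4e to Cd14 differed by -0.98 (exact permutation p = 0.3, adjusted p = 0.45 over the 6 pairs).

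**Figure D3:**
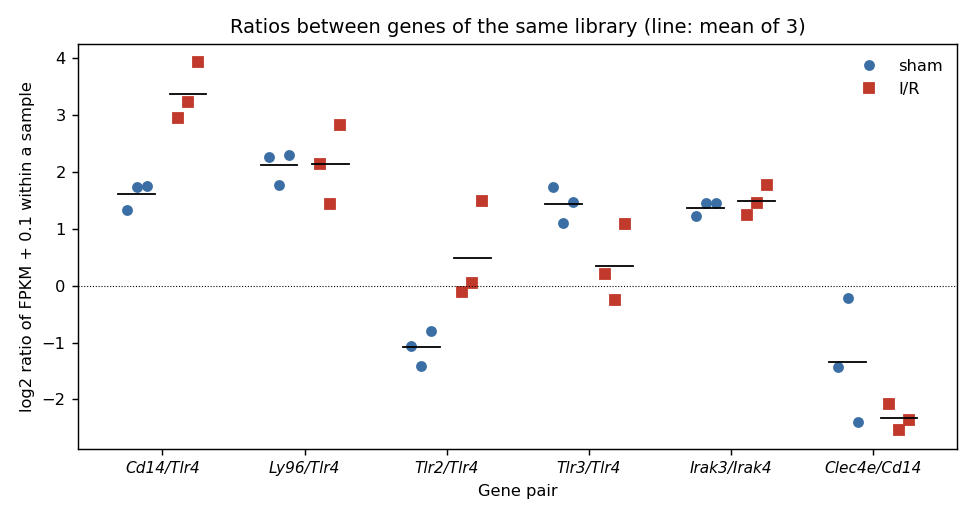
Log2 ratio of FPKM + 0.1 between 2 genes of the same library, with 1 point per rat (circles: sham; squares: I/R) and a line at the mean of 3. The ratios of Cd14 and Tlr2 to Tlr4 are higher in every I/R rat than in any sham rat, Tlr3 to Tlr4 is lower with 1.10 in I/R rat 3 just under 1.11 in sham rat 2, and the other 3 pairs overlap.

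Of the 3 members whose likeness to other genes was examined, Tlr2 was followed most closely over the 6 rats by AABR07063279.1 (Pearson r = 0.997 of log2(FPKM + 0.1)), Nopchap1 (0.996) and Ctsz (0.996), among 9106 genes with a mean of at least 1 FPKM. For Tlr4 these were Gstm4 (0.980), Deptor (0.969) and Cables2 (0.966), and for Clec4e they were Syt7 (0.994), Mprip (0.988) and Cdc42bpa (0.987). The points share their libraries and these are the highest of many values, so they are given as a description.

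The rest of the pathway was read from lists of genes by role. Among the other Toll-like receptors, 7 of 9 genes had a row and none reached the mean of 0.5 FPKM, the highest being Tlr5, the flagellin receptor, with means of 0.361 ± 0.098 FPKM in sham and 0.132 ± 0.065 FPKM in I/R (SD, n = 3). Tlr8 and Tlr13 were not analysed here. Of the chaperone and ligand delivery genes, 5 of 7 were tested and none was called, with a median log2 fold change of -0.12 against 0.29 for all genes. Of all tested genes, 25.5% were called higher and 7.36% lower. Unc93b1, which carries endosomal TLRs from the endoplasmic reticulum, had a log2 fold change of -0.40 (SE 0.24, limma adjusted p = 0.22).

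Of the 18 other adaptors and kinases, 11 were tested, 2 were higher and 1 was lower, beside 25.5% and 7.36% of all tested genes. The higher ones were Ube2n, the conjugating enzyme that builds ubiquitin chains with TRAF6, with a log2 fold change of 1.05 (limma adjusted p = 0.012), and Tab2, which reads such chains, with 0.81 (adjusted p = 0.040). The lower one was Ikbke, a kinase of the interferon branch that TLR3 also uses, at 1.23 ± 0.312 FPKM in sham and 0.349 ± 0.144 FPKM in I/R (SD, n = 3; log2 fold change -1.59, limma adjusted p = 0.012). On the scale without the mitochondrial mRNAs, Ube2n was at 0.27, Tab2 at 0.04 and Ikbke at -2.25, and Ube2n and Tab2 lost their calls. Tab2 was called in the absence of only sham rat 2 among the 6 omissions of a rat, and Ikbke lost its call without sham rat 3 (adjusted p = 0.063).

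Of the 8 inhibitors of the pathway other than Irak3, 6 were tested, 3 rose and none fell, beside 25.5% and 7.36% of all tested genes, with a median log2 fold change of 0.75. Cyld (-0.51, limma adjusted p = 0.24), Ptpn6 (-0.19, adjusted p = 0.59) and Tank (0.74, adjusted p = 0.13) did not pass, and on the scale without the mitochondrial mRNAs they were at -1.20, -0.93 and 0.01. Tnfaip3 (A20), which removes ubiquitin from signalling proteins, rose from 0.378 ± 0.108 to 2.22 ± 0.324 FPKM (SD, n = 3), a log2 fold change of 2.30 (SE 0.29, limma adjusted p = 0.0021) that kept its call in all 16 alternatives run. Socs1, a suppressor of cytokine signalling, had 1.20 (adjusted p = 0.0085), and Tollip, which binds IRAK proteins, had 0.76 (adjusted p = 0.023) and 0.00 on the scale without the mitochondrial mRNAs. Socs1 lost its call on that scale too, and Tollip also without sham rat 3 or any 1 of the I/R rats (adjusted p from 0.051 to 0.094). Irak3, the inhibitor among the members, was lower in the same fit. Sigirr was listed at 0 in all 6 libraries.

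Beside 25.5% of all tested genes called higher and 7.36% called lower, 6 of the 9 partners of the C-type lectins were tested and 1 was called. This was Clec7a (dectin-1), a receptor for fungal glucans, which rose from 0.458 ± 0.092 to 1.39 ± 0.530 FPKM (SD, n = 3; log2 fold change 1.37, limma adjusted p = 0.016). The Clec7a call was lost without I/R rat 3 (adjusted p = 0.069), without I/R rat 2 and on the scale without the mitochondrial mRNAs (adjusted p = 0.24). Fcer1g, the adaptor of CLEC4E, was at 0.12 (adjusted p = 0.69), Syk, its kinase, at -0.33 (adjusted p = 0.42), and Card9 was listed at 0 in all libraries. Clec4d, the neighbouring lectin that pairs with CLEC4E, was below the filter, and is named after its values were seen, with 3, 6 and 0 fragments in the sham rats and 24, 17 and 38 in the I/R rats.

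Among the other danger receptors, 6 of 14 were tested and 1 was called, with a median log2 fold change of -0.37. The call was a lower one, beside 7.36% of all tested genes. Ager (RAGE), a receptor for HMGB1 and S100 proteins, fell from 5.77 ± 1.34 to 2.88 ± 0.773 FPKM (SD, n = 3; log2 fold change -0.99, limma adjusted p = 0.021), a call lost without sham rat 2 (0.078) or I/R rat 1 (0.058). A further pair was below the filter and is named after its values were seen. Trem1, an amplifier of TLR signals on myeloid cells, had means of 0.121 ± 0.026 FPKM in sham and 0.713 ± 0.240 FPKM in I/R, and Aim2, a sensor of cytosolic DNA, had 0.827 ± 0.247 and 0.129 ± 0.102 FPKM (SD, n = 3).

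The endogenous ligands were the list with the highest median, 1.14. Of 13 genes, 11 were tested, 6 rose and none fell, again beside 25.5% and 7.36% of all tested genes. Rescaled without the mitochondrial mRNAs, Hmgb1, Sap130, Bgn, Fn1 and Il33 were below 0. S100a9 and S100a8, which together form calprotectin, rose by 1.89 (limma adjusted p = 0.0057) and 1.60 (adjusted p = 0.014) on the log2 scale, the former from 7.52 ± 1.51 to 30.2 ± 13.5 FPKM (SD, n = 3). Both are abundant in neutrophils, and S100a8 stood at 11.1, 26.9 and 37.2 FPKM in I/R rats 1 to 3, in whose libraries the summed neutrophil markers were 2.73, 3.56 and 5.46 FPKM. Hspd1, a mitochondrial chaperone, rose by 1.62 (adjusted p = 0.011), and Vcan, a matrix proteoglycan that TLR2 binds, by 1.38 (adjusted p = 0.012). Without sham rat 2 the adjusted p was 0.064 for S100a8 and 0.055 for Hspd1, and on the scale without the mitochondrial mRNAs it was 0.11 for S100a8 and 0.22 for Vcan. S100a9 kept its call in 16 of the 17 alternatives run for it, with a highest limma adjusted p of 0.060. On the scale without the mitochondrial mRNAs its log2 fold change was 1.12. The chaperones Hspa8, which the study also picked on these samples, and Hsp90aa1 were called too. Hmgb1, the best known nuclear danger signal, was at -0.14 (SE 0.35, limma adjusted p = 0.78). Its level in this table was low, 1.41 ± 0.507 FPKM in sham and 1.25 ± 0.427 FPKM in I/R (SD, n = 3), from 77 to 186 fragments in a library.

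**Figure D4:**
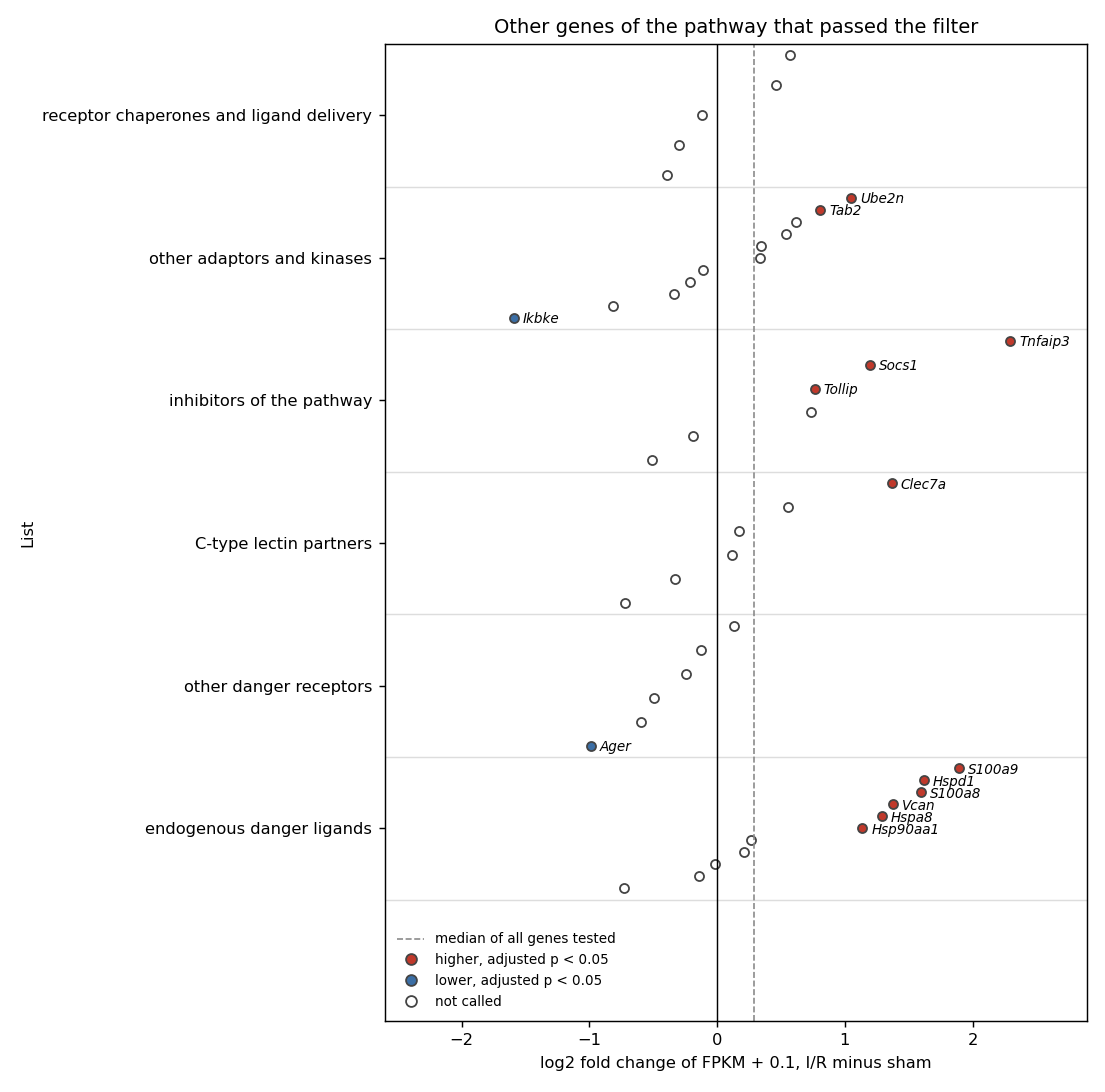
Log2 fold change of FPKM + 0.1, I/R minus sham, for every tested gene of the 6 lists with tested genes (filled: called at an adjusted p under 0.05; dashed line: the median of all genes tested, 0.29). The 12 genes called higher are mostly ligands and inhibitors, 6 and 3 of them as deposited, and the 2 called lower are Ikbke and Ager. Of all 10942 genes tested, 25.5% were called higher and 7.36% lower. On the scale without the mitochondrial mRNAs 3 of the genes shown were called higher and 14 lower, beside 793 and 2857 of the 10942.

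Markers of the cells that use these receptors were summed in each library. The sums and calls are of the values as deposited, and the calls stand beside 25.5% higher and 7.36% lower among all genes tested. The 8 pan-leukocyte markers came to 68.0 to 95.1 FPKM in sham and 86.8 to 88.9 FPKM in I/R, and none of the 8 was called, the most abundant being Arhgdib (31.2 and 32.4 FPKM). On the scale without the mitochondrial mRNAs all 8 had log2 fold changes below 0, from -1.60 (Ptprc) to -0.18 (Cd48). The median of all tested genes was -0.46 there. The 8 neutrophil markers came to 0.629 to 1.03 FPKM in sham and 2.73 to 5.46 FPKM in I/R, 2 were tested and Mmp8, a neutrophil collagenase, was called higher (0.176 and 1.65 FPKM). Mpo, a granule enzyme, was listed at 0 in all 6 libraries, as Sigirr and Card9 were. Neutrophil markers thus moved with Tlr2, Cd14, S100a8 and S100a9. So did the resident macrophage, fibroblast and cardiomyocyte sums given below, each higher in every I/R rat than in any sham rat. The part of any of these cells in those values was not tested.

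The monocyte sum was 20.5 to 23.6 FPKM in sham and 15.8 to 20.4 FPKM in I/R, led by Ly6c (11.5 and 7.93 FPKM), and 1 of 4 tested markers, Ccr2, was lower. The resident macrophage sum was 53.7 to 60.7 FPKM in sham and 64.7 to 79.1 FPKM in I/R, with C1qb (17.6 and 30.1 FPKM) called higher and Cd163 and Mrc1 lower among 10 tested. Without the mitochondrial mRNAs the log2 fold changes of C1qb, Cd163 and Mrc1 were -0.0008, -2.12 and -1.53. Lymphocyte markers came to 8.30 to 11.8 FPKM in sham and 3.11 to 7.78 FPKM in I/R, and Cd3g (4.39 and 1.86 FPKM) and Cd8a were lower among 3 tested. The lymphocyte sum moved with Tlr3, Irak3 and Irak4. The monocyte sum did so narrowly, with 20.5 FPKM in sham rat 1 and 20.4 FPKM in I/R rat 1. Of the 6 monocyte markers, Ly6c, Ccr2, Plac8 and Cd244 had lower means in I/R, and Fcgr1a and Itgam had higher ones. Itgam, below the filter, stood at 0.163 to 0.351 FPKM in sham and 0.437 to 0.556 FPKM in I/R. Fcgr1a had a log2 fold change of 0.49 and was not called. The part of these cells in the member values was not tested.

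Cardiomyocyte markers were abundant in every library of this tissue. The 7 cardiomyocyte markers with a row summed to 11148, 3871 and 3400 FPKM in sham rats 1 to 3 and to 22659 to 32619 FPKM in I/R, led by Tnni3 (2258 and 7595 FPKM), and 6 were called higher. The 6 fibroblast markers came to 377 to 520 FPKM in sham and 537 to 585 FPKM in I/R, led by Col3a1 (200.9 and 241.0 FPKM), with 2 called higher. The called genes, Col1a1 and Tcf21, had log2 fold changes of 0.13 and 0.64 on the scale without the mitochondrial mRNAs. The 7 endothelial markers came to 173 to 227 FPKM in sham and 170 to 213 FPKM in I/R, led in the mean by Pecam1 (44.0 and 53.4 FPKM), with none called. The larger cardiomyocyte signal in I/R stood beside every member value above, and its part in them was not tested.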

How the data were processed

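Myocardial RNA of 3 sham and 3 I/R rats was analysed from 1 table of FPKM values that the authors deposited, already divided by gene length and library size. The submitters' processing notes name STAR and HTSeq. Their versions, the genome build and the annotation are not given in the sources used here, so genes are named by the table's symbols and Ensembl identifiers. Of its 30452 rows, 7092 had no symbol, and rows sharing a symbol were summed. Reads shared with close paralogs could not be traced.

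Genes with a mean of at least 0.5 FPKM over the 6 samples were compared as log2(FPKM + 0.1) with limma 3.58.1 under R 4.3.3 (eBayes with an intensity trend after lmFit, all 6 samples, no covariates) and Benjamini-Hochberg adjustment, with a threshold of 0.05. Fold changes on this scale understate changes of low genes. The fit was tested on simulated data. Within-library ratios were tested by exact permutation, two-sided (numpy 2.4.6). No gene set test was run. Whole fragments were accepted within a tolerance of 0.01 and cover counting error only. The p-values measure the spread between 3 libraries per group, each read as 1 rat. Replicate numbers were checked for pairing: the deviations of same-numbered libraries from their group means correlated at 0.203, 0.117 and 0.118, and a second fit took the replicate number as a block.

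The members, and the lists of pathway genes and markers, were chosen with earlier results of these data known. The genes named are the members, at most the 4 called genes with the largest change in each pathway list, the most abundant gene of each marker list and the 3 genes most like Tlr2, Tlr4 and Clec4e. Others are named as chosen after their values were seen or beside a count they belong to. Results were recomputed with pseudocounts of 1 and 0.01, no filter or a mean of at least 5 FPKM, TPM, centring, quantile normalization, rescaling without the mitochondrial mRNAs, no trend, the replicate block, the highest row of each symbol and leaving out each rat.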

Additional observations from a re-analysis of the deposited data

How the results depend on the processing

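Tlr3 and, among the pathway genes named, Tnfaip3 kept their calls under every alternative run, and Cd14 under all but the rescaling without the mitochondrial mRNAs. The scaling decided most of the balance between directions. Of all calls, 77.6% were higher as deposited, 87.3% after rescaling to TPM, 56.5% after centring, 48.0% after quantile normalization, 21.7% without the mitochondrial mRNAs and 91.9% at a mean of at least 5 FPKM, and the all-gene median of the log2 fold change was 0.48 (TPM), 0.04 (centring), -0.02 (quantile) and -0.46 (without the mitochondrial mRNAs). The cause was not tested.

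Among all genes, 2790 were higher as reported, 1441 after quantile normalization, 793 without the mitochondrial mRNAs and 1528 to 2557 with 1 rat left out, the fewest without sham rat 3. Lower were 805 as reported, 166 at a mean of at least 5 FPKM, 504 with TPM, 1554 after centring, 1559 after quantile normalization, 2857 without the mitochondrial mRNAs and 309 to 881 with 1 rat left out, with 309 without sham rat 2 and 359 without sham rat 3. Without the filter, 2198 genes were higher and 639 lower.

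The 2 members called higher became 1 after centring, 1 after quantile normalization, 0 without the mitochondrial mRNAs and 0 at a mean of at least 5 FPKM, where no member remains to be tested, and 1 to 2 with 1 rat left out. The 3 called lower became 1 with no filter, 0 at a mean of at least 5 FPKM, 1 with TPM and 1 to 3 with 1 rat left out. The count of 1 higher came without sham rat 1, sham rat 3, I/R rat 2 or I/R rat 3, and the count of 1 lower without sham rat 2, sham rat 3, I/R rat 2 or I/R rat 3. The 12 pathway genes called higher became 6 at a mean of at least 5 FPKM, 4 after quantile normalization, 3 without the mitochondrial mRNAs and 8 to 10 with 1 rat left out. The 2 called lower became 0, 6 and 14 under the same 3 settings, 6 after centring and 1 to 3 with 1 rat left out, with 1 without sham rat 3 or I/R rat 1. With the replicate block they became 4, since Irf3 (adjusted p = 0.013) and Il33 (adjusted p = 0.049) were added, and the block changed no member's call.

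The called rise of Myd88 turned to -0.063 without the mitochondrial mRNAs. Other signs that turned were of values near 0. Ly96 was at 0.18 with TPM and between -0.16 and 0.080 with 1 rat left out, including 0.01 without sham rat 2, 0.0065 without sham rat 3, 0.080 without I/R rat 2 and 0.06 without I/R rat 3. Tlr4 was at 0.024 after quantile normalization, 0.17 without sham rat 2 and 0.38 without I/R rat 3. The ratio of Ly96 to Tlr4 was -0.014 with a pseudocount of 1, -0.23 after quantile normalization and -0.32 to 0.36 with 1 rat left out, and that of Irak3 to Irak4 was -0.10, -0.12 and -0.031 to 0.24. The other ratios kept their direction, with 1.47 to 1.96 for Cd14 to Tlr4, 1.06 to 1.86 for Tlr2 to Tlr4, -1.46 to -0.79 for Tlr3 to Tlr4 and -1.50 to -0.42 for Clec4e to Cd14. The alternatives for Tlr2 and Tlr4, which are under the filter, were added after the data were seen and run with no filter. The planned ratio of Tlr7 to Tlr4 was not run.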
